A study of Homo sapiens with 8 samples.

Results

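The 10 genes that place an epithelial cell line between epithelial and mesenchymal character were followed in BEAS-2B cells: the type II keratins KRT5, KRT7 and KRT8, the type I keratins KRT17, KRT18 and KRT19, the intermediate filament gene VIM, the cadherins CDH1 and CDH2, and the matrix gene FN1. They were chosen by name, as 10 of the 58735 genes in the deposited tables, and the counts of all isoforms of a gene were summed. All 10 passed the filter on low counts (10 or more in at least 2 of 8 libraries), as did 18242 genes in all. BEAS-2B cells are a line of human bronchial epithelium, immortalized with viral genes, and a single line stands here for bronchial epithelium. Cells on collagen-coated inserts were exposed for 2 h to 1 ppm formaldehyde or to clean air and recovered for 6 h. RNA depleted of rRNA was sequenced as input (CA_IN for clean air, FA_IN for formaldehyde) or after immunoprecipitation with an antibody against the oxidized base 8-oxoG (CA_IP and FA_IP), with 2 replicates in each of the 4 groups. The input libraries held 26152651 to 45144392 expected counts and the pull-down libraries 16883500 to 23658012. The labels name the replicates biological, without saying which cultures they came from, so p-values measure the spread between these samples.

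Keratins form the intermediate filaments of epithelial cells as pairs of a type I and a type II chain. KRT5 and KRT14 are known as the pair of basal cells, KRT8 and KRT18 as the pair of simple epithelia, with KRT7 and KRT19 beside them, and KRT6, KRT16 and KRT17 as keratins of stressed or wounded epithelia. VIM encodes vimentin, the intermediate filament of mesenchymal cells. CDH1 encodes E-cadherin of adherens junctions, CDH2 encodes N-cadherin, and FN1 encodes fibronectin. A shift from the first set of genes to the second is the usual description of an epithelial-mesenchymal transition. 8-oxoG arises from guanine, so the number of guanines in a message sets how many bases could carry it. The guanine share of a message gives that number per length.

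The most guanine-rich stretches of 60 nt in the coding exons are shown for 3 keratins and for VIM and CDH2. They are shown because the guanine share of the whole transcript separated the keratins from the other genes here. Capitals mark runs of 3 or more guanines, and the sequences are the sense strand, 5′ to 3′, of GRCh38 read through the GENCODE 44 exons.
KRT5: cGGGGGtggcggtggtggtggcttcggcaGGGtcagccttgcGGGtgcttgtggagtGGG
KRT18: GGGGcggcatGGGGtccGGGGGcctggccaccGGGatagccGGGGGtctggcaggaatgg
KRT17: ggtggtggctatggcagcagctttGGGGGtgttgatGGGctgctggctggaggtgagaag
VIM: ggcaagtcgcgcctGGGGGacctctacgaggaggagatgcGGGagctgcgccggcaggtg
CDH2: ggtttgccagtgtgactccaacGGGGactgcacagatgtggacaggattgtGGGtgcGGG
The KRT5 stretch lies in exon 1 of 9 (chr12:52520124-52520183, minus strand) and holds 33 guanines. The KRT18 stretch lies in exon 1 of 7 (chr12:52949337-52949396, plus strand) and holds 32. The KRT17 stretch lies in exon 1 of 8 (chr17:41624255-41624314, minus strand) and holds 30. The VIM stretch lies in exon 1 of 9 (chr10:17229846-17229905, plus strand) and holds 28. The CDH2 stretch lies in exon 13 of 16 (chr18:27985053-27985112, minus strand) and holds 25. The richest stretches not shown hold 32 guanines in KRT7, 29 in KRT8, 29 in KRT19, 27 in FN1 and 25 in CDH1. The stretches of KRT8 and KRT19 are thus close to those of VIM and FN1.

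At baseline the cells expressed keratins of both the basal and the simple type together with vimentin. Levels per length are given as TPM (abundance scaled for transcript length, the authors' isoform values summed by gene) in CA_IN. KRT7 was highest with 447 ± 21.3 TPM (SD, n = 2), followed by KRT17 with 349 ± 60.8. VIM (201 ± 39.2) and KRT18 (179 ± 3.04) came next, and their replicate values overlapped. KRT19 (140 ± 23.8) and KRT5 (136 ± 26.1) also overlapped with each other. KRT8 reached 102 ± 3.80 and FN1 61.8 ± 0.354. The cadherins were far lower, at 10.45 ± 1.12 TPM for CDH1 and 3.68 ± 0.523 for CDH2. Of 19831 protein-coding genes, KRT7 ranked 92 and FN1 485, while CDH1 ranked 2880 and CDH2 6193. Thus 8 of the 10 genes stood among the most abundant messages of the line, and both cadherins stood apart from them.

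**Figure D1:**
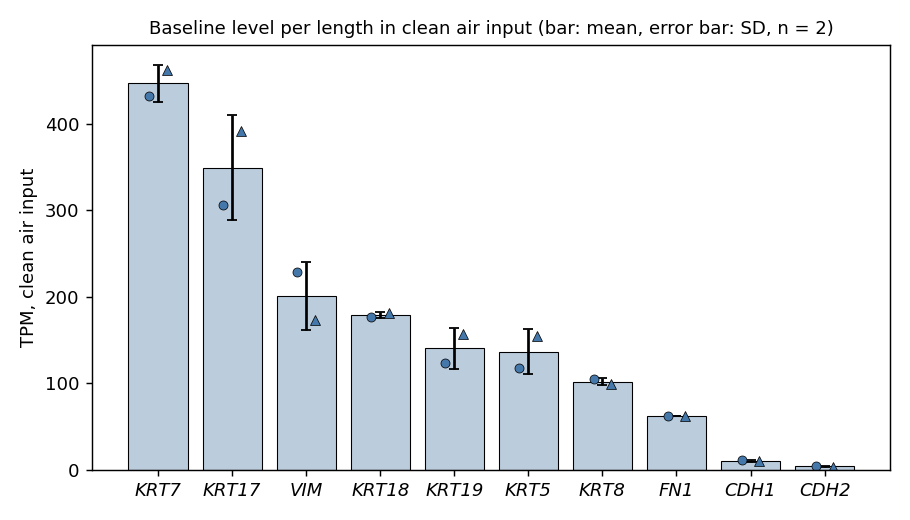
Baseline level of the 10 genes in clean air input, in TPM, with bars for the mean, error bars for the SD (n = 2), circles for replicate 1 and triangles for replicate 2. KRT7 and KRT17 lie highest, VIM lies among the keratins, and CDH1 and CDH2 are near the foot of the axis.

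Pairs of chains were close to balance. The summed TPM of all type II keratins was 1.03 to 1.17 times that of all type I keratins over the 8 libraries. KRT5, KRT7 and KRT8 held 84.8% to 85.9% of the type II sum, and KRT17, KRT18 and KRT19 held 91.1% to 94.1% of the type I sum. The simple pair was less even, since KRT8 had 0.530 to 0.592 times the TPM of KRT18. CDH1 exceeded CDH2 in every library, by 2.42 to 3.66 times. TPM was not compared between input and pull-down, because transcripts shorter than 200 nt took 12.7% to 18.01% of all TPM in input and 3.18% to 4.54% after pull-down.

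Other keratins and lineage genes were counted in lists. Among 13 further type II keratins, 6 were tested, led by KRT6A (105 TPM in CA_IN), KRT81 (11.5) and KRT80 (2.06), and 5 of the 13 were at 0 in both CA_IN libraries. Of 10 further type I keratins, 7 were tested, led by KRT23 (34.5 TPM), KRT14 (12.3), the usual partner of KRT5, and KRT10 (8.48). All 12 listed basal cell genes were tested and 10 had a mean of at least 1 TPM in CA_IN, among them the hemidesmosome and laminin genes ITGB4 (18.7 TPM) and LAMB3 (14.5). Other genes of this list were lower, with TP63 at 3.67 TPM, KRT15 at 1.155, NGFR at 0.775 and DLK2 at 0.585. Junction genes were led by the catenins CTNNB1 (101 TPM) and CTNNA1 (74.1) and by the P-cadherin gene CDH3 (16.9). Mesenchymal genes were led by SPARC (113 TPM) and TGFBI (33.6). The transcription factors of epithelial-mesenchymal transition were low, with SNAI2 at 2.15 TPM, TWIST1 at 1.95 and ZEB1 at 1.80. The listed epithelial regulators were low as well, led by ST14 (5.85 TPM), RAB25 (4.785) and KLF5 (3.90), down to OVOL2 at 0.335. A mean of at least 1 TPM in CA_IN was reached by 8 of these 12 regulators and by 6 of the 6 transition factors. Marker lists of other airway and lung cells were near 0: the summed TPM over the 8 libraries was 0.47 to 1.78 for 11 secretory genes, 0.95 to 2.91 for 12 ciliated genes, 0.15 to 0.65 for 6 neuroendocrine genes and 0.11 to 0.48 for 6 endothelial genes. The leukocyte list reached 1.49 to 3.84 TPM, which was mostly CD68. The alveolar list reached 95.05 to 202 TPM, nearly all of it CAV1 (101 TPM in CA_IN), a gene that many cell types express.

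To ask whether formaldehyde changed these genes in total RNA, FA_IN was compared with CA_IN on library-scaled counts after TMM normalization (CPM), by the quasi-likelihood test of edgeR, with p-values adjusted after Benjamini and Hochberg over the 18242 genes. None of the 10 genes was called (0 of 10, background 0.00548%, which is 1 gene of 18242, and 611 genes at an unadjusted p under 0.05). DESeq2 on all 8 libraries also called 0 of the 10. With the replicate number as a block, the edgeR test called KRT19 (log2 fold change 0.31, adjusted p = 0.0427). That was 1 of the 10 genes, beside a background of 1.41% (258 genes). These numbers come from file names and cover 2 pairs, and nothing in the labels says that they pair the treatments. The paper's figure legends use the same numbers for its biological replicas. Its methods exposed clean air cultures in parallel with formaldehyde, without stating that a number marks a shared run. Deviations from group means of same-numbered CA_IN and FA_IN libraries correlated at 0.475. In bulk RNA, a change in the share of cells and a change per cell cannot be told apart.

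KRT19 had 392 and 519 CPM in CA_IN and 507 and 620 in FA_IN, and the groups overlapped. Its log2 fold change was 0.31 ± 0.21 (SE, edgeR adjusted p = 0.945), the largest of the 10 with all libraries, and ranged from 0.12 without CA_IN replicate 1 to 0.52 without CA_IN replicate 2, with 0.13 without FA_IN replicate 2. Without CA_IN replicate 1 or FA_IN replicate 2 the value of VIM (0.23 and 0.22) was larger. KRT18 had 635 and 672 CPM in CA_IN and 728 and 741 in FA_IN, so that both formaldehyde libraries lay above both clean air libraries, at a log2 fold change of 0.17 ± 0.094 (adjusted p = 0.945). KRT8 had 436 and 428 against 467 and 474 CPM, also without overlap, at 0.12 ± 0.078 (adjusted p = 0.945). KRT7 had 1452 and 1624 against 1692 and 1687 CPM, again without overlap. With 2 libraries a group, groups can lie apart without any effect, and how many of all tested genes did so was not counted. None of these differences passed the test without a block. KRT5 had 711 and 952 against 742 and 1075 CPM and KRT17 had 1072 and 1420 against 1164 and 1505, and in both genes the replicates of a group differed by more than the group means.

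The mesenchymal genes lay nearer to 0. VIM had 1035 and 812 CPM in CA_IN and 1095 and 807 in FA_IN, a log2 fold change of 0.04 with a 95% interval from -0.40 to 0.48. CDH2 had 43.8 and 35.1 against 42.7 and 37.6 CPM, a log2 fold change of 0.02 with an interval from -0.33 to 0.38. FN1 had 985 and 998 against 916 and 963 CPM, at -0.08 (-0.26 to 0.11). CDH1 had 140 and 122 against 121 and 128 CPM, at -0.07 (-0.29 to 0.15). Changes of the size of a doubling lay outside the intervals of all 10 genes, and small changes did not. No gene of the other lists was called in this comparison by the test without a block.

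**Figure D2:**
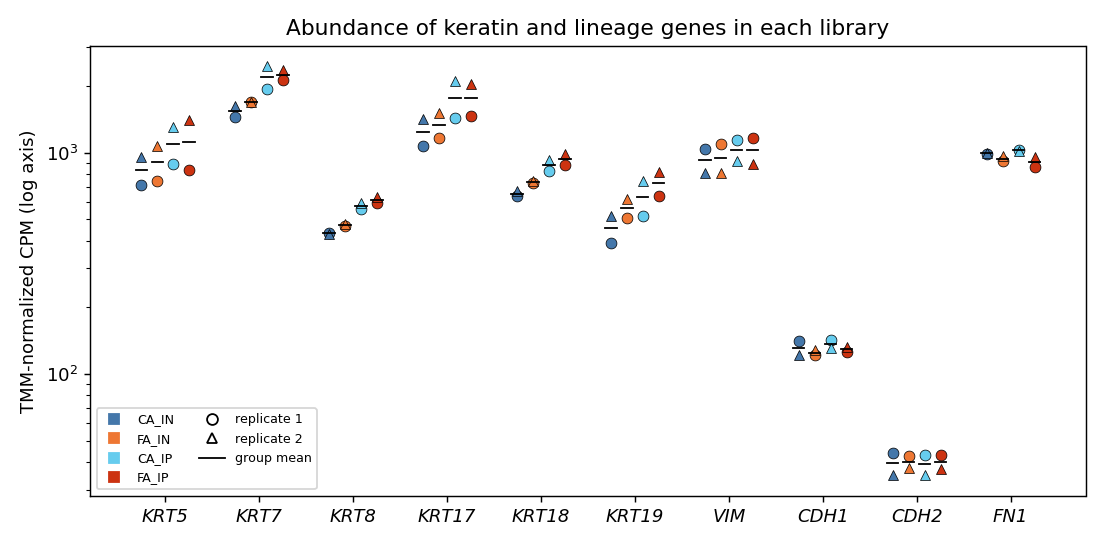
TMM-normalized CPM of each gene in each library on a log axis, with colours for the 4 groups, circles for replicate 1, triangles for replicate 2 and short lines for group means. The keratins lie higher in the pull-down groups than in input, and KRT5, KRT17 and KRT19 differ between replicates in every group.

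The comparison of pull-down with input asked which messages the 8-oxoG antibody recovered preferentially. The 6 keratins lay high among all genes in their recovery, and the cadherins and fibronectin lay near the middle, between the 47.3 and 58.8 percentiles. Averaged over both treatments, the log2 fold change of IP against IN was 0.35 to 0.46 for the keratins, 0.13 for VIM, 0.06 for CDH1, 0.00 for FN1 and -0.01 for CDH2. The median was 0.41 for the 6 keratins, 0.03 for the other 4 genes and 0.01 for all tested genes, and the keratins lay between the 93.1 and 97.0 percentiles of all tested genes.

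KRT8, the type II chain of simple epithelia, had 436, 428, 467 and 474 CPM in the input libraries and 555, 595, 592 and 631 after pull-down. All pull-down values were above all input values, and the log2 fold change was 0.40 ± 0.055 (SE, edgeR adjusted p = 0.00400). Its partner KRT18 had 635, 672, 728 and 741 CPM in input and 824, 929, 882 and 990 after pull-down, without overlap, at 0.39 ± 0.067 (adjusted p = 0.0121). KRT7 had 1452, 1624, 1692 and 1687 CPM in input and 1931, 2455, 2139 and 2361 after pull-down, at 0.46 ± 0.086 (adjusted p = 0.0175). These were the 3 genes of the 10 that were called higher, beside a background of 2.15% of all tested genes called higher (5.19% called in either direction). Both calls of KRT7 and KRT18 were lost when any of CA_IN replicate 1, FA_IN replicate 1, FA_IN replicate 2 or FA_IP replicate 2 was left out, which left 1 gene, KRT8, called.

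The other keratins differed by as much but varied more between replicates. KRT17 had 1072, 1420, 1164 and 1505 CPM in input and 1432, 2115, 1471 and 2052 after pull-down, and the groups overlapped. Its log2 fold change was 0.46 ± 0.16 (adjusted p = 0.180). KRT19 had 392, 519, 507 and 620 CPM in input and 515, 743, 637 and 821 after pull-down, at 0.42 ± 0.15 (adjusted p = 0.166). KRT5 had 711, 952, 742 and 1075 CPM in input and 887, 1307, 832 and 1400 after pull-down, at 0.35 ± 0.20 (adjusted p = 0.433). The value of KRT5 was 0.13 without FA_IP replicate 2, 0.20 without CA_IP replicate 2 and 0.22 without FA_IN replicate 1, and VIM (0.22, 0.21 and 0.24) was larger each time. Values in all 4 pull-down libraries exceeded those in all 4 input libraries for KRT7, KRT8 and KRT18, as for 7.76% of all tested genes.

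Input and pull-down RNA were fractions of one pool, so each pull-down library was also set beside the input library of the same treatment and number. Within the 4 pools the fold ranged from 1.26 to 1.51 for KRT7, from 1.27 to 1.39 for KRT8, from 1.21 to 1.38 for KRT18, from 1.26 to 1.49 for KRT17, from 1.26 to 1.43 for KRT19 and from 1.12 to 1.37 for KRT5. VIM was 1.07 to 1.12 times higher and CDH1 1.02 to 1.08 times higher. These 8 genes were above input in all 4 pools, as were 23.3% of all tested genes. CDH2 (0.987 to 1.01) and FN1 (0.942 to 1.05) lay on both sides of 1.

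With a block for the RNA pool added to the same edgeR test, all 6 keratins and VIM were called higher, 7 of 10 genes beside a background of 15.5% called higher. The log2 fold change was 0.33 ± 0.045 for KRT5 (adjusted p = 7.49e-06), 0.46 ± 0.044 for KRT7 (2.83e-08), 0.40 ± 0.043 for KRT8 (2.76e-07), 0.44 ± 0.043 for KRT17 (3.20e-08), 0.38 ± 0.043 for KRT18 (4.02e-07) and 0.41 ± 0.043 for KRT19 (1.31e-07). VIM rose by less, at 0.13 ± 0.041 (adjusted p = 0.0175), and its call was lost when any 1 of the 4 pools was left out (adjusted p from 0.0791 to 0.324), while the 6 keratins stayed called each time. CDH1 (0.06 ± 0.046), CDH2 (-0.01 ± 0.053) and FN1 (0.00 ± 0.041) did not pass.

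**Figure D3:**
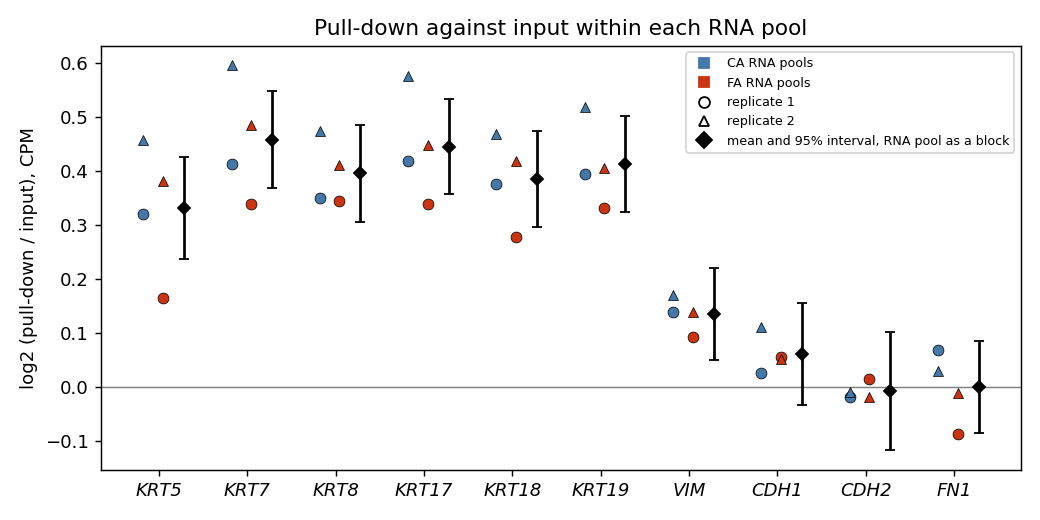
Log2 ratio of pull-down to input CPM in each RNA pool (blue for clean air, red for formaldehyde, circles for replicate 1, triangles for replicate 2), with the fitted mean and its 95% interval with the RNA pool as a block (diamonds). All 24 keratin points are above 0, and the points of CDH2 and FN1 lie around 0.

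In each treatment the fitted values of the 6 keratins were above those of the other 4 genes when all libraries were used, but not for every left-out library. Between CA_IP and CA_IN, KRT8 was called (0.41 ± 0.078, edgeR adjusted p = 0.0347), 1 of the 10 genes beside 0.148% of all tested genes called higher, and its call was lost under 5 other settings and when any 1 of the 8 libraries was left out (adjusted p from 0.0600 to 0.360). KRT7 had a log2 fold change of 0.51 (adjusted p = 0.0874), KRT17 of 0.51 (0.420), KRT19 of 0.47 (0.405), KRT18 of 0.42 (0.0674) and KRT5 of 0.40 (0.655). Without CA_IP replicate 2, KRT5 (0.094), KRT19 (0.18) and KRT17 (0.20) were below VIM (0.30), and without CA_IP replicate 1 they reached 0.65, 0.71 and 0.76. Without CA_IN replicate 1, KRT5 (0.21), KRT19 (0.28) and KRT17 (0.32) were again below VIM (0.34). Between FA_IP and FA_IN, 0 of 10 were called beside 0.0329% called higher (1660 genes at an unadjusted p under 0.05), with KRT8 nearest at 0.38 (adjusted p = 0.0637), and DESeq2 on all 8 libraries called 1. Without FA_IP replicate 2, KRT5 (-0.11), KRT17 (0.16), KRT19 (0.20) and KRT18 (0.28) were below VIM (0.32), and without FA_IN replicate 1 the same held for KRT5 (0.062), KRT17 (0.24), KRT19 (0.24) and KRT18 (0.34) against VIM (0.36). With the RNA pool as a block the 6 keratins were called in both treatments, beside 11.6% called higher in clean air and 5.45% after formaldehyde. Without replicate 2 of a treatment, its block fit called fewer, 3 keratins in clean air and 4 after formaldehyde.

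Whether formaldehyde changed the recovery was tested as the difference between the treatments. It was not called for any of the 10 genes (0 of 10, background 0.0%, with 195 of 18242 genes at an unadjusted p under 0.05), nor with the RNA pool as a block (background 0.137%). The difference was negative for all 6 keratins, from -0.03 for KRT8 to -0.11 for KRT17. With the block, its 95% interval ran from -0.21 to 0.14 for KRT8 and from -0.28 to 0.07 for KRT17. The difference was -0.10 for FN1 (interval with the block -0.27 to 0.07), -0.04 for VIM, -0.01 for CDH1 and 0.01 for CDH2.

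Guanine share divided the genes in the same way. In the leading transcript of each gene, guanine made up 32.4% of bases in KRT19, 31.9% in KRT7, 31.2% in KRT17, 30.2% in KRT18, 30.2% in KRT5 and 29.5% in KRT8. It made up 25.2% in VIM, 24.7% in FN1, 23.7% in CDH1 and 22.0% in CDH2. Sorted by this share, 17934 of the 18242 tested genes had a sequence, and all 6 keratins fell in the quintile with the most guanine. The median log2 fold change of IP against IN rose from -0.13 in the lowest quintile through -0.06, 0.01 and 0.12 to 0.23 in the highest. The keratins lay above the median of their quintile, and CDH2, CDH1 and VIM lay above that of theirs as well. Runs of 3 or more guanines, counted per transcript, did not divide the genes in this way. They numbered 96 in FN1, 49 in CDH1, 33 in CDH2 and 10 in VIM, and 16 to 30 in the keratins. The number of guanines per transcript did not divide the genes in this way either. In GENCODE 44 the leading transcripts of FN1 (7952 nt), CDH1 (4811 nt) and CDH2 (4016 nt) were longer than those of the keratins (1390 to 2238 nt). They thus held more guanines than any of the 6 keratins despite the lower share. VIM (1868 nt) lay within the lengths of the keratins. For KRT5, KRT7, KRT18, CDH1 and CDH2 the deposited transcript length differed from that in GENCODE 44, so their shares are those of a gene model other than the deposited one. The part of guanine content in the recovery was not tested.

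**Figure D4:**
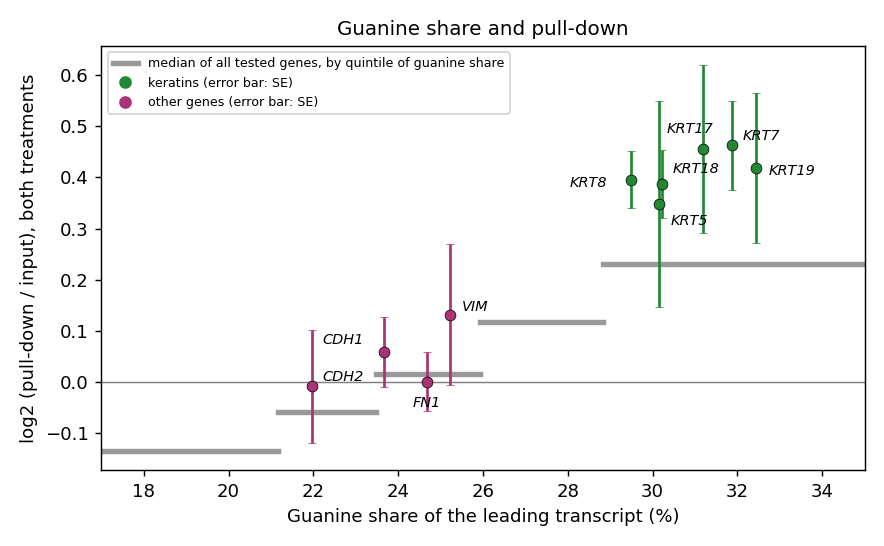
Guanine share of the leading transcript against the log2 fold change of pull-down over input, averaged over both treatments, with the SE for each gene. Grey lines give the median of all tested genes in each quintile of guanine share, clipped at the ends of the axis, and the keratins (green) lie in the highest quintile, above its median.

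Of 13 other keratins tested, 1 was called higher and 1 lower, and with the RNA pool as a block 8 were called higher and 1 lower, beside 15.5% of all tested genes called higher and 9.64% lower. KRT81, a hair keratin, was called higher (log2 fold change of IP against IN 0.47, edgeR adjusted p = 0.0209, beside 2.15% of all tested genes called higher) with a guanine share of 31.7%, the only one of 6 type II keratins called. KRT10, the type I keratin of differentiating epidermis, was called lower (-0.78, adjusted p = 0.00567, beside 3.04% of all tested genes called lower) with a guanine share of 30.2%, the only one of 7 type I keratins called. KRT10 was also lower in CA_IP than in CA_IN (-0.80, adjusted p = 0.0498, beside 1.77% of all tested genes called lower). KRT6A, the most abundant of these keratins, had a log2 fold change of 0.36 (adjusted p = 0.155), and with the RNA pool as a block 0.35 ± 0.045 (adjusted p = 2.70e-06). With the block KRT14, the basal partner of KRT5, was called at 0.42 ± 0.053, KRT16 at 0.41 ± 0.14, KRT86 at 0.39 ± 0.12, KRT6B at 0.34 ± 0.095, KRT80 at 0.24 ± 0.057 and KRT23 at 0.16 ± 0.044.

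Guanine share and recovery did not go together in every filament gene. The linker gene PLEC had 35.9% guanine and a log2 fold change of -0.01, while the nuclear lamin gene LMNA had 31.6% and 0.37 (adjusted p = 0.188, and 0.38 ± 0.044 with the RNA pool as a block, adjusted p = 9.63e-07). Of 19 tested junction genes, the plakophilin gene PKP3 was called higher (0.35, adjusted p = 0.0150). Of 12 epithelial regulators, the membrane protease gene ST14 was called higher (0.34, adjusted p = 0.0393) and the vesicle traffic gene RAB25 lower (-0.44, adjusted p = 0.0490). None was called among 6 transcription factors of epithelial-mesenchymal transition, 17 mesenchymal genes or 12 basal genes, whose median log2 fold changes were -0.07, 0.11 and 0.10 beside 0.01 for all genes. With the RNA pool as a block, 0 of these factors were called higher and 1 lower (SNAI2, -0.27 ± 0.077), 5 mesenchymal genes higher and 1 lower, and 4 basal genes higher and 0 lower. In the same fit 6 junction genes were higher and 2 lower, 3 epithelial regulators were higher and 1 lower, and 2 of 11 other filament and linker genes were higher and 0 lower, beside the 15.5% and 9.64% of all tested genes.

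Replicates differed in a way that split the 10 genes. Replicate 2 was higher than replicate 1 in all 4 groups for KRT5 (1.34 to 1.68 times), KRT17 (1.29 to 1.48 times) and KRT19 (1.22 to 1.44 times), and also for KRT18 (1.02 to 1.13 times). It was lower in all 4 groups for VIM (0.737 to 0.802 times) and CDH2 (0.801 to 0.882 times). Of all tested genes, 18.2% were higher and 21.1% lower in replicate 2 in all 4 groups. As a result the TPM ratio of VIM to KRT5 was 1.66 to 1.96 in the replicate 1 libraries and 0.837 to 1.12 in the replicate 2 libraries. KRT8 and FN1 stayed within 0.982 to 1.11 times in all 4 groups, and KRT7 and CDH1 had no common direction. Replicates 1 and 2 carry the numbers 1 and 3 in the names of the deposited files. Nothing in the labels says that a number marks a shared culture day. The part of culture or preparation in this difference was not tested.

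**Figure D5:**
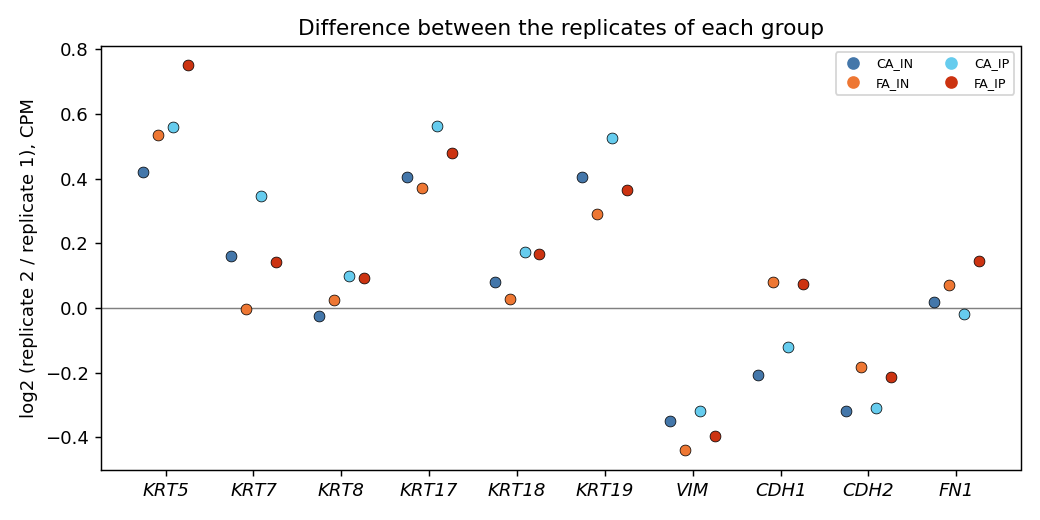
Log2 ratio of replicate 2 to replicate 1 in CPM for each gene in each of the 4 groups (colours). KRT5, KRT17 and KRT19 lie above 0 and VIM and CDH2 below 0 in all 4 groups.

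Across the 8 libraries, the gene whose log2 CPM was most like that of each member was sought among 8939 tested genes with a mean of at least 10 CPM. It was ACLY for KRT5 (r = 0.995), CARD10 for KRT7 (0.998), PPP4C for KRT8 (0.997), MFGE8 for KRT17 (0.998), EEF1G for KRT18 (0.997), RUVBL1 for KRT19 (0.995), PTBP1 for VIM (0.994), RNF20 for CDH1 (0.961), TAF7 for CDH2 (0.991) and B4GALT5 for FN1 (0.973). The 8 points share 4 RNA pools, 2 fractions and 2 replicate numbers, and the values are a description.

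Most of the 10 genes rested on a single isoform. The leading one held 96.7% to 98.0% of the count of KRT5, 95.7% to 96.8% of KRT7, 98.0% to 98.6% of KRT17, 98.9% to 99.6% of KRT19, 98.9% to 99.4% of VIM and 93.98% to 99.5% of CDH1. It held 68.8% to 78.1% of KRT18, 56.0% to 65.7% of KRT8, 58.3% to 87.1% of CDH2 and 43.9% to 47.8% of FN1, where the division among isoforms is an estimate. Tested isoform by isoform over 67873 transcripts, 0 isoforms of the 10 genes were called in any comparison (background 0.0% in FA_IN against CA_IN, 0.242% in clean air, 0.144% after formaldehyde, 0.582% averaged and 0.0% for the difference). DESeq2 on all 8 libraries called 10 of these isoforms. The share of all transcripts that DESeq2 called was not counted, so this number has no background beside it. They included KRT18-202 (ENST00000388837, 0.59 averaged) and, in FN1, ENST00000336916.

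FN1 isoforms showed how uneven such estimates were. ENST00000336916 had 964 and 250 expected counts in the CA_IN libraries, 4 and 782 in those of FA_IN, 0 in both of CA_IP, and 0 and 956 in those of FA_IP, so that replicates of one group differed by the whole range. ENST00000359671 had 540, 115, 11, 783, 0, 0, 1 and 236 counts in the same order. The sum over isoforms, taken as TMM-normalized CPM, varied by no more than 1.11 times between replicates. In expected counts, which are not scaled for library size, the sum was 42896, 36532, 22019, 33291, 24435, 21119, 15597 and 23232 in the same order. Grouped by exon, coding isoforms with the ED-A exon (chr2:215380811-215381080, minus strand), which marks cellular fibronectin, held 56.5% to 61.0% of the counts of the coding isoforms that span it in all 8 libraries. Those with ED-B (chr2:215392931-215393203) held 11.2% to 17.01%. In input the ED-B share was 14.3% and 14.4% in clean air and 15.01% and 14.9% after formaldehyde, without a test, and both shares overlapped between the treatments when the pull-down libraries were included, and between the fractions.

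Some reads of these genes could belong to near-identical copies. The 51 processed KRT8 pseudogenes in the tables held 2.10% to 2.83% of the KRT8 count, and 67 KRT18 pseudogenes held 1.24% to 1.46% of the KRT18 count. KRT14, a close relative of KRT17, held 2.77% to 3.74% of its count. KRT8 and KRT18 lie on opposite strands of chromosome 12 and their annotated loci overlap by 1084 nt, and the counting used no strand setting, so reads there cannot be assigned by strand. KRT6A, KRT6B and KRT6C are near-identical, as are KRT81 and KRT86, so the counts of each are uncertain. The antisense gene KRT7-AS held 0.302% to 0.545% of the KRT7 count.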

How the data were processed

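RNA-seq and 8-oxoG RIP-seq libraries of BEAS-2B cells were analysed from the deposited tables, 1 per library. The authors trimmed the reads with cutadapt, aligned them with STAR 2.6.0a to GRCh38 and estimated isoform abundance with RSEM 1.2.25, and they deposited expected counts and TPM for 206601 transcripts. RSEM divides reads shared by isoforms or copies, and rRNA depletion and pull-down precede these values. The authors' DESeq2 comparison tables (fold changes and p-values) were not used. The authors' paper names the same antibody clone as the labels' characteristics, while the labels' protocol text names another. Here, expected counts were summed by gene, rounded and tested with edgeR 4.0.16 (R 4.3.3, limma 3.58.1, TMM, quasi-likelihood, prior count 0.125) on all 8 libraries with 1 mean per group, for genes with at least 10 counts in at least 2 libraries, at an adjusted p of 0.05. The test was tried on simulated data. Intervals are at 95%. Names and sequences came from GENCODE 44, which matched 58207 of the 58735 genes.

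Deviations from group means of input and pull-down libraries with the same file number correlated at 0.618 in clean air and 0.480 after formaldehyde over 13909 genes. Same-numbered libraries of different treatments also correlated, at 0.361 to 0.475, so a number is not particular to a pool. The methods state that both fractions were split from one pool, which is the reason for the pool block. The alternatives were DESeq2 1.42.0, other scaling, filters, prior count and blocks, protein-coding isoforms, 4 libraries per comparison and each library left out. TMM from long genes and each pool left out were added after seeing the data. Named were the 10 genes, the 3 most abundant genes of each list (some are not reported here), every list gene called, and leading or called isoforms; PLEC, KRT14, KRT16, KRT86, KRT6B, SNAI2 and 2 FN1 isoforms were shown with values known. The members and lists were chosen with earlier results of these data known.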

Additional observations from a re-analysis of the deposited data

How the results depend on the processing

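The fold changes of the keratins kept their direction in the averaged pull-down under every alternative, and KRT8 stayed called in all 17, while the number of called genes depended on the model. Counts over all tested genes in the same fit are given in parentheses. Of the 10 genes in the averaged comparison, 3 were called (947). The count was 5 with DESeq2 on all 8 libraries (1148) or with library size in place of TMM (3054), and 6 without a filter (1292). It was 7 with the RNA pool (4587) or the replicate number (3321) as a block. In clean air 1 was called (349), against 0 with DESeq2 (381) or edgeR (269) on the libraries of the comparison. It was also 0 with TMM from long protein-coding genes (366), a mean count of at least 50 (320) or protein-coding isoforms only (201). It was 3 with DESeq2 on all 8 libraries (505) or library size (1157). It was 6 without a filter (686), with the pool block (3178) or with the replicate block (1941). After formaldehyde 0 were called (274), against 1 with DESeq2 on all 8 libraries (389) and 2 with DESeq2 on the libraries of the comparison (350). It was 3 with library size (561), 5 without a filter (578) or with the replicate block (953), and 6 with the pool block (1835). In FA_IN against CA_IN the replicate block, whose numbers come from file names and cover 2 pairs, called KRT19 (log2 fold change 0.31, adjusted p = 0.0427) and so moved the count from 0 to 1, and that over all genes from 1 to 258. Deviations of same-numbered libraries correlated at 0.475 between CA_IN and FA_IN. For isoforms of the 10 genes 0 were called, against 10 with DESeq2, 6 with library size and 3 without a filter. The share of all transcripts called in these alternative fits was not counted. With each library left out the count lay from 1 to 3 in the averaged comparison and from 0 to 1 in clean air, and with the pool block and each pool left out it lay from 3 to 6 in clean air and from 4 to 6 after formaldehyde. The cause of these differences was not tested.

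Under the alternatives that did not leave out single libraries, the called number over all genes lay between 535 and 4587 in the averaged comparison (947 as reported), 201 and 3178 in clean air (349), 164 and 1835 after formaldehyde (274), 0 and 258 in input (1), and 0 and 52 for the difference (0). With each library left out it lay between 437 and 879, 196 and 317, 121 and 282, 0 and 1, and 0 and 5 in the same order. Library size moved the median of all genes to 0.16 in the averaged comparison.

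Signs turned for values near 0. With library size VIM (-0.0030) and CDH2 (-0.018) in input became negative, and CDH2 became positive in the averaged (0.15), clean air (0.13) and formaldehyde (0.17) pull-down, as did FN1 after formaldehyde (0.12), which is less than or close to the shift of all genes. Averaged FN1 became -0.012 with DESeq2, -0.00035 with the pool block, -0.048 with TMM from long genes, -0.019 with a mean count of at least 50, -0.023 without a filter and -0.014 with protein-coding isoforms, and FN1 in clean air became -0.0086 with TMM from long genes. The difference between treatments for CDH1 became 0.0059 with TMM from long genes, 0.0095 with library size, 0.020 with a mean count of at least 50, 0.0080 without a filter and 0.066 with protein-coding isoforms.

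With single libraries left out, log2 fold changes in input ranged from -0.19 to 0.35 for KRT5, from -0.12 to 0.31 for KRT17, from -0.21 to 0.23 for VIM, from -0.18 to 0.039 for CDH1 and from -0.13 to 0.19 for CDH2. In clean air they ranged from -0.026 to 0.34 for VIM, from -0.046 to 0.17 for CDH1 and from -0.18 to 0.15 for CDH2. After formaldehyde they ranged from -0.11 to 0.62 for KRT5, from -0.10 to 0.36 for VIM, from -0.11 to 0.12 for CDH2 and from -0.10 to 0.023 for FN1. Averaged values ranged from -0.090 to 0.076 for CDH2 and from -0.039 to 0.036 for FN1 (-0.018 to 0.0081 with the pool block). The difference between treatments ranged from -0.49 to 0.23 for KRT5, from -0.26 to 0.085 for KRT7, from -0.083 to 0.018 for KRT8, from -0.36 to 0.20 for KRT17, from -0.16 to 0.015 for KRT18, from -0.33 to 0.19 for KRT19, from -0.25 to 0.23 for VIM, from -0.12 to 0.11 for CDH1 and from -0.16 to 0.19 for CDH2. The 10 genes had at least 723 expected counts in each library.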
